A study of Mus musculus with 10 samples.

Results

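Paneth cells of the mouse intestine release more than the defensin peptides. Here 10 genes grouped under such other products were followed: the lysozymes Lyz1 and Lyz2, the matrix metalloprotease Mmp7, the ribonuclease Ang4, the pentraxins Mptx1 and Mptx2, the lectin Itln1, the protease Habp2, the stress-response gene Nupr1 and the phospholipase Pla2g5. The name does not hold for all of them. Nupr1 is a chromatin protein, and the Paneth class held at most 1.24% of the Pla2g5 UMIs of any ENR library. The genes were chosen by symbol among the 31053 genes of the count matrices, and their unique molecular identifier (UMI) counts were read per cell class and per library. A rise of Ang4 in -VE-organoids and a fall of Ang4 and Mptx1 in DSS colon were known when the genes were chosen, so both are given below as descriptions.

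Paneth cells sit at the base of small intestinal crypts between the Lgr5+ stem cells and discharge granules of antimicrobial proteins into the crypt lumen. Lysozyme cuts bacterial peptidoglycan, Mmp7 cleaves the precursors of the alpha-defensins into active peptides, and Ang4 is an antimicrobial ribonuclease. Pentraxins and intelectins bind sugars or other surface molecules of microbes. Goblet cells are the mucus-secreting cells of the same secretory lineage. The normal colon has goblet and deep crypt secretory cells but no Paneth cells.

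The study grew organoids from crypts of the proximal small intestine and compared media that differ in their small molecules. The medium of ENR-organoids (3 libraries) held R-Spondin 1, EGF and Noggin. The medium of Hyper-organoids (3 libraries) held EGF, R-Spondin 1 conditioned medium, FGF2, the BMP receptor inhibitor LDN193189, GSK-3 Inhibitor XV, Pexmetinib, the HDAC inhibitor VPA and the EZH2 inhibitor EPZ6438. In -VE-organoids (2 libraries, started from ENR-organoids) VPA and EPZ6438 were left out of that medium and the other components kept. Hyper libraries 1 and 2 were also started from ENR-organoids, and ENR library 3 and Hyper library 3 from primary crypts. The passages were 2, 7 and 3 for ENR, 1 and 6 for -VE, and 1, 6 and 3 for Hyper libraries. Libraries with the same number share the first character of their sample code in the labels, which was read here as a culture series and is not explained there, and the labels name no strain, age or number of mice for a library. Crypts isolated directly from colon gave 1 library without and 1 library with dextran sulfate sodium (DSS), an agent that damages the colonic epithelium. The labels do not give the day of sampling, and neither colon library has a replicate.

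Between 1983 and 4293 cells were kept per organoid library, with 89124015 to 170019527 UMIs. The normal and DSS colon libraries held 1132 and 1933 kept cells with 19906845 and 32397122 UMIs. Levels are given in CPM, UMI counts scaled to the same total in every sum, over the kept cells of a library or of 1 cell class. Cell classes of the organoids are those deposited by the authors, who named the Paneth class from genes that include Ang4 and Lyz1, so levels of the 10 genes across classes are descriptions. The data went against a pure class in places. The 8 goblet cell markers Agr2, Tff3, Muc2, Fcgbp, Zg16, Clca1, Spink4 and Ramp1 summed to 45286 to 85869 CPM in the Paneth class and to 23281 to 60320 CPM in the goblet class. The 13 Paneth cell markers, all alpha-defensins, summed to 9411 to 31959 CPM in the goblet class.

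Stretches of 250 bases before the transcription start are shown for Mmp7, Ang4, both pentraxins and both lysozymes, whose counts can be confused with each other. Mmp7 and Ang4 were called higher in 2 of the media, and the rise of Ang4 in -VE-organoids was known beforehand. The stretches were taken from RefSeq on GRCm38.p6, 5′ to 3′ on the strand of the gene. Gene positions given further on are those of GENCODE, whose start lies 49 bases upstream of the RefSeq start for Lyz2 and 21 bases upstream for Mptx2, so these windows reach into the printed gene. Capitals mark matches to TATAAA, the usual letters of a TATA box, to CTTTGA, the core of a TCF/LEF site, and to CAGNTG, one form of the E-box, searched on both strands, and no 2 matches overlapped.
Lyz1, chr10:117292869-117293118, minus strand: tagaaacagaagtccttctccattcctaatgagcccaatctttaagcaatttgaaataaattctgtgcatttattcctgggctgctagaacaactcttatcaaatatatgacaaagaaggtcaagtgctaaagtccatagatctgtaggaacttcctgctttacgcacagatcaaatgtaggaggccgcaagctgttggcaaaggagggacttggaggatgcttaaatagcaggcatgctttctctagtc
Lyz2, chr10:117282273-117282522, minus strand: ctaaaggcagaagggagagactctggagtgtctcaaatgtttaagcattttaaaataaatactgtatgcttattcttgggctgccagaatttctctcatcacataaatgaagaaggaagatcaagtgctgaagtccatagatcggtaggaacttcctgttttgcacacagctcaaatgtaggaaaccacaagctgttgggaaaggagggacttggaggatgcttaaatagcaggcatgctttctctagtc
Mmp7, chr9:7691840-7692089, plus strand: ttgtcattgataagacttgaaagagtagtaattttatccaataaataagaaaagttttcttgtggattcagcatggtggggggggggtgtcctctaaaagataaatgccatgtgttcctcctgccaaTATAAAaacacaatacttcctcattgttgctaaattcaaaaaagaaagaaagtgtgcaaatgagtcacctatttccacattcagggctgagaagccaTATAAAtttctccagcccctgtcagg
Ang4, chr14:51773591-51773840, minus strand: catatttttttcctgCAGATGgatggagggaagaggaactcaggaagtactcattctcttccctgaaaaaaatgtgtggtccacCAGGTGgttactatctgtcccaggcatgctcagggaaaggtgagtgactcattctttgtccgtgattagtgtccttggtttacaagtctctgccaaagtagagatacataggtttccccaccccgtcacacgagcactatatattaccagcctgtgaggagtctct
Mptx1, chr1:174330268-174330517, plus strand: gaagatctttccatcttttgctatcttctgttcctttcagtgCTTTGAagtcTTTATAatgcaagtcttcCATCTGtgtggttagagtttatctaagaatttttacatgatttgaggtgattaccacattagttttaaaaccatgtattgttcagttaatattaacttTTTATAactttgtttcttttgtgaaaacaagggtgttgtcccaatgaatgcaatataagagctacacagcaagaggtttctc
Mptx2, chr1:173277757-173278006, minus strand: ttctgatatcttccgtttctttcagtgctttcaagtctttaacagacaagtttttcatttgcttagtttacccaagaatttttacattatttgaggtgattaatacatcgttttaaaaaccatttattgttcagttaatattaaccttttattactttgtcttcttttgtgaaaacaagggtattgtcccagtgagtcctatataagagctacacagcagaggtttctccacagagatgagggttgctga

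Mmp7 had 2 TATA box matches, the nearer ending 21 bases before the start. Ang4 had 2 E-box matches, and Mptx1 had 1 TCF/LEF and 1 E-box match. Mptx1 also had 2 TATA box matches, both on the opposite strand (TTTATA) and ending 193 and 77 bases before the start. The windows of Lyz1, Lyz2 and Mptx2 held none of the 3 motifs. Of 32851 RefSeq windows of this length, 12.4% held a TATA box match, 13.8% a TCF/LEF match and 44.8% an E-box match. The Lyz1 and Lyz2 windows were identical at 78.8% of aligned positions, and those of Mptx1 and Mptx2 at 74.0%. Lyz1 (ENSMUSG00000069515, chr10:117287797-117292868) and Lyz2 (ENSMUSG00000069516, chr10:117277331-117282321) lie 5475 bases apart on the minus strand, and their longest transcripts were identical at 92.0% of aligned positions. Mptx1 (ENSMUSG00000026531, chr1:174330518-174332873, plus strand) and Mptx2 (ENSMUSG00000079180, chr1:173274382-173277777, minus strand) were identical at 91.9%. Of all 50-base words of the transcript, 16.1% for Lyz1, 15.4% for Lyz2, 17.9% for Mptx1 and 18.0% for Mptx2 also occurred in another gene, so a low count of 1 member of such a pair beside a high count of the other is uncertain.

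In ENR-organoids most of the genes were highest in the Paneth or the goblet class. Lyz1 stood at 24073, 20045 and 25493 CPM in the Paneth class, 3541, 2875 and 3008 CPM in the goblet class, and 68.8 to 80.2 CPM in the stem class. The Paneth class held 46.1% to 55.7% of all Lyz1 UMIs of a library and the goblet class 31.0% to 36.2%. Itln1 followed the same order, with 23856, 24894 and 26018 CPM in the Paneth class and 4288, 3244 and 4168 CPM in the goblet class. Mmp7 was at 1649, 1416 and 1355 CPM in the Paneth class and 220, 246 and 216 CPM in the goblet class. Ang4 was at 1236, 918 and 709 CPM in the Paneth class and at 76.2, 112 and 83.3 CPM in the goblet class. The values of the 3 ENR libraries did not overlap between these classes for any of these 4 genes. This is a description only, as the authors named the Paneth class from genes that include Ang4 and Lyz1. The share of all genes without overlap is not given here.

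Mptx1 transcripts lay mainly in the goblet class. Its Paneth class levels in ENR-organoids were 5338, 2617 and 1605 CPM and its goblet class levels 1873, 1434 and 2811 CPM, with overlap, and the goblet class held 63.1% to 87.5% of its UMIs. Pla2g5 was at 19.1, 8.56 and 15.1 CPM in the ENR Paneth class, from 13, 8 and 11 UMIs. Transit amplifying (TA) cells were at 12.2, 11.8 and 14.8 CPM. The stem class reached 20.8, 21.6 and 27.5 CPM and the goblet class 21.9, 24.7 and 24.5 CPM. The Paneth class held at most 1.24% of Pla2g5 UMIs in any ENR library, with 1.46% to 2.30% of cells. TA cells held 49.0% to 55.4% of the UMIs, with 32.9% to 43.6% of cells. Habp2 was at 94.1, 106 and 89.3 CPM in the Paneth class and 32.1, 30.0 and 29.4 CPM in the goblet class, which held 46.8% to 53.4% of its UMIs. Nupr1, a chromatin protein induced by stress, was at 329, 355 and 470 CPM in the Paneth class and at 54.7, 44.7 and 46.3 CPM in enterocytes. Mptx2 and Lyz2 were scarce. Mptx2 ranged from 28.9 to 238 CPM and Lyz2 from 3.21 to 5.88 CPM in the ENR Paneth class, and 1 cell gave 49.1% to 75.0% of the Mptx2 UMIs of that class in each library. These Lyz2 values stand beside a far higher count of Lyz1, which shares part of its sequence, in the same cells.

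**Figure D1:**
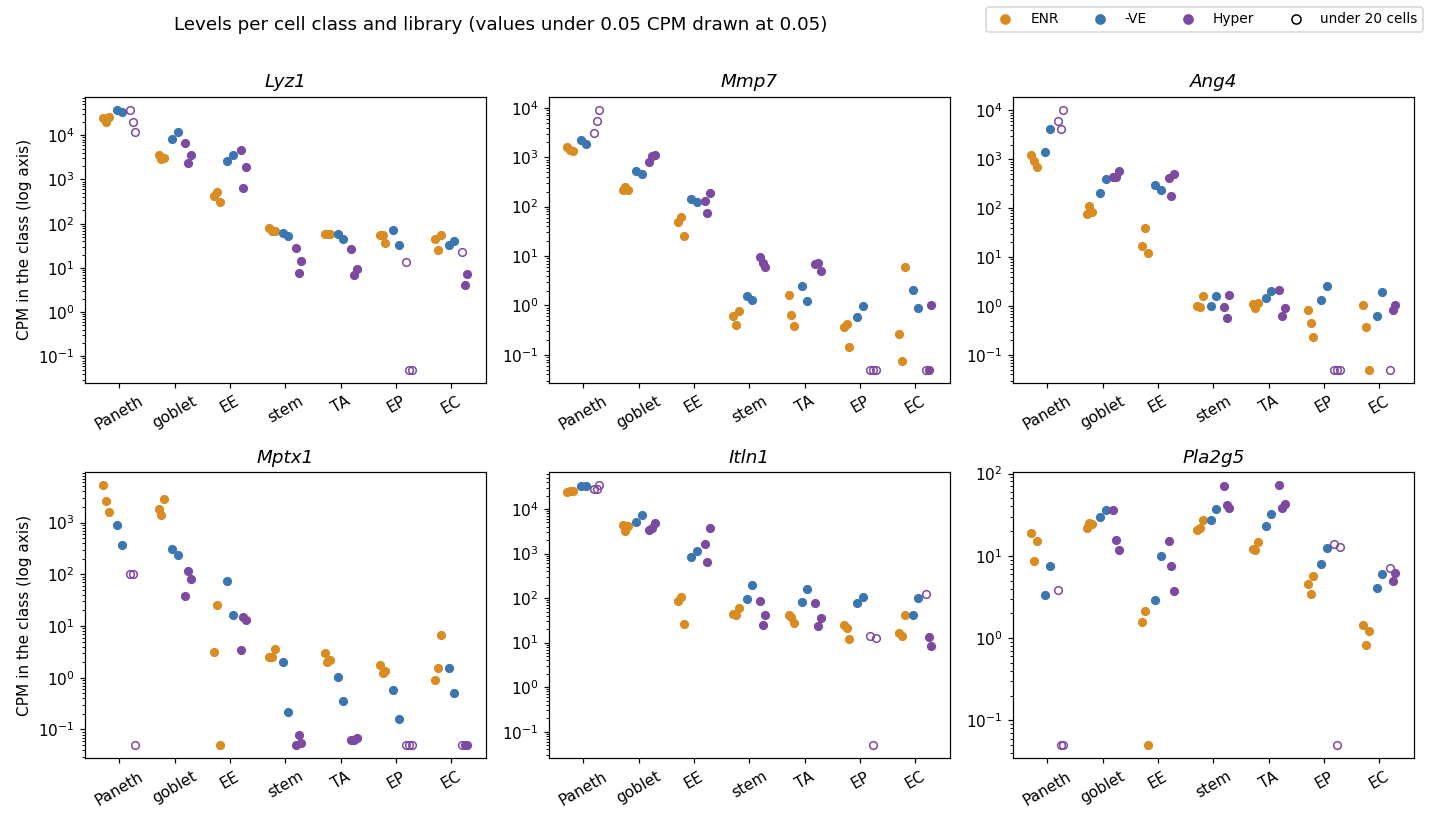
Levels of Lyz1, Mmp7, Ang4, Mptx1, Itln1 and Pla2g5 in each organoid cell class, in CPM on a log axis, with 1 point per library and open circles for classes with fewer than 20 cells. Values under 0.05 CPM are drawn at 0.05. Lyz1, Mmp7, Ang4 and Itln1 have their highest class level in the Paneth class in every library, a class named from genes that include Ang4 and Lyz1. Pla2g5 sits higher in stem cells than in the Paneth class in every ENR and -VE library, by little in ENR library 1 (20.8 and 19.1 CPM). In Hyper libraries 2 and 3 the Paneth class had 2 cells each and no Pla2g5 UMI. There 3 UMIs would be 74.5 and 65.8 CPM, so the order cannot be read.

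Correlation over the 50 sums of 1 class in 1 library with at least 20 cells gave the genes whose pattern was most like each member, as a description over sums that share libraries and depth. Lyz1 was closest to Defa24 (r = 0.970), Spink4 (0.959) and Bhlha15 (0.947), the last a transcription factor of secretory cells. Mmp7 was closest to Rnase1 (0.961), Tmed3 (0.958) and Ang4 (0.958). Mptx1 was closest to Tpsg1 (0.952), Ano7 (0.951) and Defa17 (0.950), Mptx2 to Gm7861 (0.950), Defa29 (0.950) and Defa28 (0.933), Itln1 to Defa24 (0.943), Defa17 (0.942) and Lyz1 (0.939), and Habp2 to Rnase1 (0.956), Tmed3 (0.948) and Mmp7 (0.948). Ang4 was closest to Mmp7 (0.958), Tmed3 (0.943) and Rnase1 (0.942), and Lyz2 to Defa36 (0.942), Lyz1 (0.932) and Defa3 (0.928). Pla2g5 stood apart from the other members (r between -0.0788 and 0.167) and was closest to Ppt2 (0.834), the stem cell marker Lgr5 (0.829) and Metrn (0.812). Nupr1 reached 0.434 to 0.675 with the other members outside Pla2g5, and its closest genes were Cybrd1 (0.754), Lrrc26 (0.732) and Defa28 (0.722).

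The first comparison, Hyper- against ENR-organoids, asked how these genes differ in the medium with all the small molecules. Mmp7, Ang4 and Pla2g5 were higher in Hyper-organoids and Mptx1 was lower. Mmp7 was at 21.1, 22.1 and 20.5 CPM in the 3 ENR libraries and at 51.5, 56.4 and 72.3 CPM in the 3 Hyper libraries, a log2 fold change of 1.37 ± 0.12 (SE, edgeR quasi-likelihood test, adjusted p = 4.07e-05). The groups did not overlap. Ang4 was at 12.6, 12.8 and 9.78 CPM in ENR libraries and at 40.1, 24.3 and 47.2 CPM in Hyper libraries (log2 fold change 1.54 ± 0.35, edgeR adjusted p = 0.00568). Pla2g5, which releases fatty acids from phospholipids, was at 10.8, 9.67 and 11.2 CPM in ENR libraries and at 68.7, 37.4 and 37.4 CPM in Hyper libraries (2.05 ± 0.25, edgeR adjusted p = 0.000232). Its highest value came from Hyper library 1, and all 3 Hyper values exceeded all ENR values.

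Mptx1 was at 107, 81.4 and 124 CPM in the ENR libraries and at 1.99, 5.45 and 4.58 CPM in the Hyper libraries, a log2 fold change of -4.83 ± 0.37 (edgeR adjusted p = 2.2e-05). No other member moved as far. The 4 called members compare with 18.2% of 16037 tested genes called higher and 4.75% called lower, where called means an adjusted p under 0.05 and a change of at least 2-fold. Lyz1 was not called, at 358, 330 and 374 CPM in ENR libraries and 485, 130 and 242 CPM in Hyper libraries (-0.44 ± 0.40, edgeR adjusted p = 0.374), and the Hyper values lay on both sides of the ENR values. Without Hyper library 1, 6 members were called and Lyz1 was among them, at a log2 fold change of -1.05. The share of all genes called in that fit is not given here, so its count of members is not read as a result. Itln1 was at 357, 354 and 398 CPM in ENR libraries and 313, 205 and 385 CPM in Hyper libraries (-0.42 ± 0.24, edgeR adjusted p = 0.158). Adjusted p-values of the 6 members not called ran from 0.136 to 0.593. In a sum over a whole library, fewer cells of a type and less RNA per cell cannot be told apart, and the Paneth class held 32, 40 and 54 cells in ENR libraries and 10, 2 and 2 cells in Hyper libraries.

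The second comparison, -VE- against ENR-organoids, asked what the medium did without VPA and EPZ6438. The rise of Ang4, to 26.8 and 66.8 CPM (log2 fold change 2.01 ± 0.38), was one of the patterns known beforehand. Mmp7 was at 52.1 and 50.2 CPM in the -VE libraries (1.27 ± 0.13, edgeR adjusted p = 0.00263), both above all 3 ENR values. Pla2g5 was at 22.2 and 31.0 CPM (1.34 ± 0.27, edgeR adjusted p = 0.0244), and Itln1 at 612 and 959 CPM (1.09 ± 0.26, edgeR adjusted p = 0.0416). Neither overlapped with the ENR libraries. Mptx1 fell to 25.7 and 20.9 CPM, a log2 fold change of -2.16 ± 0.38 (edgeR adjusted p = 0.0167). Lyz1 reached 834 and 1224 CPM, above every ENR library, and was not called (1.55 ± 0.44, edgeR adjusted p = 0.0724). The count was 5 of 10 called, 1 of them Ang4, beside 1.35% of all tested genes called higher and 1.20% called lower. These calls rest on few libraries: without -VE library 2 only Mmp7 was called, without -VE library 1 Mmp7, Ang4 and Pla2g5, and without any 1 ENR library only Mmp7 and Mptx1. Without -VE library 2 the log2 fold change of Ang4 was 1.20.

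**Figure D2:**
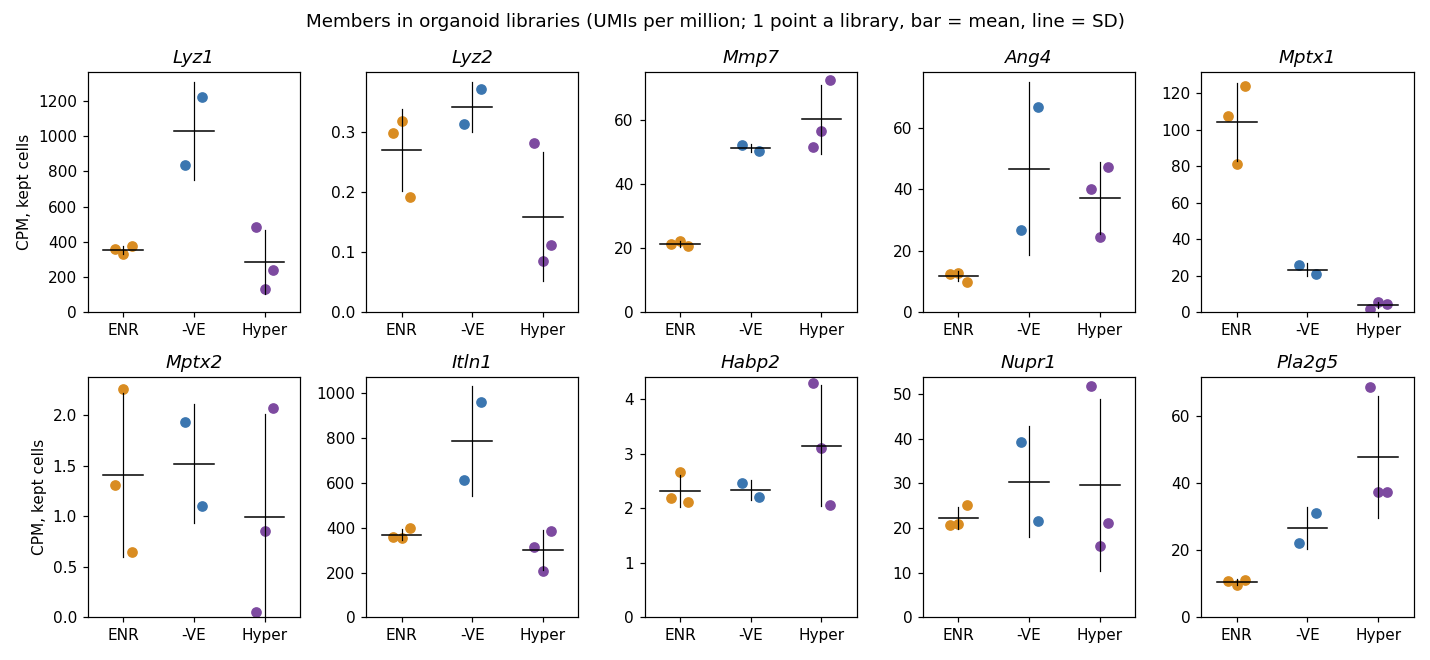
Levels of the 10 genes in CPM over all kept cells of each organoid library (points), with the mean (bar) and SD (line) of each medium. Mmp7 and Pla2g5 lie above the ENR libraries in every -VE and Hyper library, Mptx1 lies below, and Hyper library 1 has the highest Lyz1, Nupr1 and Pla2g5 of the Hyper libraries.

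The third comparison, Hyper- against -VE-organoids, asked what adding VPA and EPZ6438 changed. Lyz1, Itln1 and Mptx1 were lower in Hyper-organoids. The log2 fold change was -1.99 ± 0.44 for Lyz1 (edgeR adjusted p = 0.00717), -1.52 ± 0.26 for Itln1 (edgeR adjusted p = 0.00217) and -2.68 ± 0.36 for Mptx1 (edgeR adjusted p = 0.000741). For all 3 genes every Hyper library lay below both -VE libraries, in the values given above. Mmp7 over all cells (0.10 ± 0.13, edgeR adjusted p = 0.575) was not called, but it was called higher within the stem and TA classes. Ang4, whose -VE level was known when the genes were chosen, was at -0.47 ± 0.37, and its Hyper values lay between the 2 -VE values in 2 of 3 libraries. Pla2g5 was at 0.71 ± 0.27 (edgeR adjusted p = 0.0622). The 3 calls stand beside 2.51% of all tested genes called lower and 16.1% called higher. Without -VE library 2, Lyz1 was at -1.68 (edgeR adjusted p = 0.0560) and 2 members were called. All 3 contrasts share libraries, so they are not independent of each other.

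The remaining members were not called in any contrast over all cells. Nupr1 was at 20.7 to 25.1 CPM in ENR, 39.2 and 21.6 CPM in -VE and 51.7, 15.9 and 21.2 CPM in Hyper libraries, so 1 high library stood out in each of the last 2 media. Habp2, a serine protease first described as binding hyaluronan, stayed between 2.06 and 4.29 CPM in all 8 libraries, and the groups overlapped. Mptx2 ranged from 0.0505 to 2.26 CPM with overlap in every contrast. Lyz2 did not exceed 0.371 CPM in any organoid library, and its highest value was again in a library rich in Lyz1. In Hyper against -VE Lyz2 was at -1.22 ± 0.48 (edgeR adjusted p = 0.0682), with every Hyper library below both -VE libraries, on 10 to 63 UMIs per library.

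Within the goblet class, Mmp7 and Ang4 were higher and Mptx1 lower in both other media than in ENR-organoids. Goblet class Mmp7 was at 220, 246 and 216 CPM in ENR, 535 and 449 CPM in -VE and 809, 1050 and 1112 CPM in Hyper libraries. The groups did not overlap, and the log2 fold change was 2.02 ± 0.13 for Hyper and 1.06 ± 0.14 for -VE against ENR (edgeR adjusted p = 0.00501 for the latter). The median goblet cell held 0 Mmp7 UMIs in each ENR library, 2 and 5 in the -VE libraries, and 13.5, 16 and 23 in the Hyper libraries. With each cell thinned to 10000 UMIs, 28.6% to 33.7% of goblet cells in ENR and 64.9% to 75.8% in Hyper libraries had an Mmp7 UMI (36.0% to 41.1% and 74.7% to 77.9% unthinned). In ENR enterocytes, which should lack the gene, the thinned share was 0% to 1.12%, at median depths of 32330.5 to 39846.5 UMIs against 24335 to 31837 in ENR goblet cells. Ang4 followed, at 76.2, 112 and 83.3 CPM in ENR, 202 and 388 CPM in -VE and 431, 444 and 579 CPM in Hyper goblet cells. Its log2 fold change was 2.32 ± 0.23 for Hyper and 1.65 ± 0.24 for -VE against ENR. Goblet cells with at least 10 Ang4 UMIs numbered 5, 8 and 6 in ENR, 19 and 79 in -VE and 22, 34 and 33 in Hyper libraries.

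Mptx1 in the goblet class was at 1873, 1434 and 2811 CPM in ENR, 303 and 238 CPM in -VE and 38.4, 115 and 80.9 CPM in Hyper libraries. The 3 media formed 3 separate ranges, with log2 fold changes of -4.82 ± 0.38 for Hyper and -2.98 ± 0.40 for -VE against ENR and -1.84 for Hyper against -VE (edgeR adjusted p = 0.00401). Lyz1 in the goblet class rose in -VE-organoids to 8299 and 11842 CPM from 3541, 2875 and 3008 CPM (1.62 ± 0.31, edgeR adjusted p = 0.0232) and was at 6811, 2412 and 3522 CPM in Hyper-organoids, 1.30 lower than in -VE on the log2 scale. Members called within the goblet class numbered 4 for -VE against ENR, 1 of them Ang4, whose rise was known (1.14% of all tested genes in either direction), 3 for Hyper against ENR (13.3%) and 3 for Hyper against -VE (9.87%). Without -VE library 2 only Mmp7 remained called for -VE against ENR, and without Hyper library 1 the count was 5 in both contrasts of Hyper-organoids. Mptx2 was the third call of the last contrast, at 2.73 ± 0.84 (edgeR adjusted p = 0.0380), and lost it without any 1 of 7 libraries. In Hyper libraries 2 and 3, 1 cell gave 64.4% and 80.2% of the goblet class Mptx2 UMIs, and Hyper library 1 had 4 UMIs.

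Paneth markers were lower in the goblet class of both other media, as Mptx1 was, while Mmp7 and Ang4 were higher. Their sum over the 13 markers in the goblet class was 23658, 21448 and 31959 CPM in ENR, 19978 and 15803 CPM in -VE and 12530, 9411 and 9791 CPM in Hyper libraries, and 26.6% to 44.8% of goblet class cells gave at least 1% of their UMIs to these markers. Without those cells, a step chosen after seeing the data, Hyper goblet cells differed from ENR goblet cells by 4.03 for Mmp7, 3.51 for Ang4, 1.24 for Itln1, -4.81 for Mptx1 and -2.61 for Mptx2 on the log2 scale. All 5 were called, a count that stands without the share of all genes called in that fit and is not read as a result. Goblet class Mptx2 lay in few cells, as given above. The same step for -VE against ENR gave 2.03 for Mmp7, 2.14 for Lyz1, 1.75 for Itln1 and -3.21 for Mptx1, with Ang4 at 1.67. The defensins were themselves lower in Hyper-organoids, so the same limit takes out different cells in different media, and these values are given as a description.

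Within the enteroendocrine class, the hormone-producing cells, 6 of 8 tested members were called in Hyper- against ENR-organoids (7.40% of all tested genes). Itln1 was at 85.4, 106 and 26.7 CPM in ENR, 853 and 1127 CPM in -VE and 1606, 648 and 3767 CPM in Hyper libraries, a log2 fold change of 4.86 ± 0.60 for Hyper against ENR. Stem class Itln1 was at 41.4 to 60.4 CPM in ENR, 95.9 and 200 CPM in -VE and 25.1 to 87.9 CPM in Hyper libraries, below the enteroendocrine level in every -VE and Hyper library. Ang4 was at 17.1, 40.1 and 12.3 CPM in ENR, 294 and 242 CPM in -VE and 419, 180 and 490 CPM in Hyper libraries (4.00 ± 0.42 for Hyper against ENR). Much of this signal lay in few cells. The 1 cell with most Ang4 gave 22.6% to 80.9% of the enteroendocrine class's Ang4 UMIs in Hyper libraries, and 12, 2 and 7 cells had at least 10 UMIs. Lyz1 (2.60 ± 0.52, edgeR adjusted p = 0.00718) and Mmp7 (1.59 ± 0.32, edgeR adjusted p = 0.00703) also rose. Lyz1 was at 426, 524 and 316 CPM in ENR libraries, and at 4595 and 654 CPM in Hyper libraries 1 and 2. The 1 cell with most Lyz1 gave 15.8%, 42.2% and 15.2% of its enteroendocrine UMIs in the Hyper libraries. In Hyper library 2 the median enteroendocrine cell held 0 Lyz1 UMIs. Pla2g5, the sixth called member, had 2, 3 and 0 UMIs in the ENR and 40, 16 and 7 UMIs in the Hyper libraries, so it passed the filter on low counts through the libraries where it was high, and its call is not read as a result. Nupr1 fell by 2.84 on the log2 scale (edgeR adjusted p = 0.0171), from 10.1, 80.9 and 143 CPM in ENR to 13.9, 5.10 and 11.1 CPM in Hyper libraries. The low ENR library overlapped with the Hyper libraries. In ENR libraries 2 and 3, 1 cell gave 92.2% and 85.6% of the enteroendocrine Nupr1 UMIs. Pla2g5 lost its call without any 1 of 5 libraries and Nupr1 without Hyper library 2 or ENR library 3. For -VE against ENR, 2 members were called, Itln1 (3.86 ± 0.61, edgeR adjusted p = 0.0299) and Ang4 (3.58 ± 0.44), whose rise was known, and 0.190% of all tested genes were called. In the -VE libraries 1 cell gave 82.9% and 63.5% of the enteroendocrine Ang4 UMIs.

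The summed Paneth markers in the enteroendocrine class moved too, from 1478, 1228 and 82.2 CPM in ENR to 2960 and 4150 CPM in -VE and 4291, 1479 and 2872 CPM in Hyper libraries. Without the cells with at least 1% of UMIs in these markers, at most 13.4% of a library's enteroendocrine cells, Hyper against ENR gave 3.31 for Ang4, 4.52 for Itln1, 1.74 for Lyz1 and 1.22 for Mmp7. Again 6 members were called, a count that stands without the share of all genes called in that fit and is not read as a result. Without those cells, -VE against ENR gave 3.56 for Ang4 and 3.61 for Itln1.

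**Figure D3:**
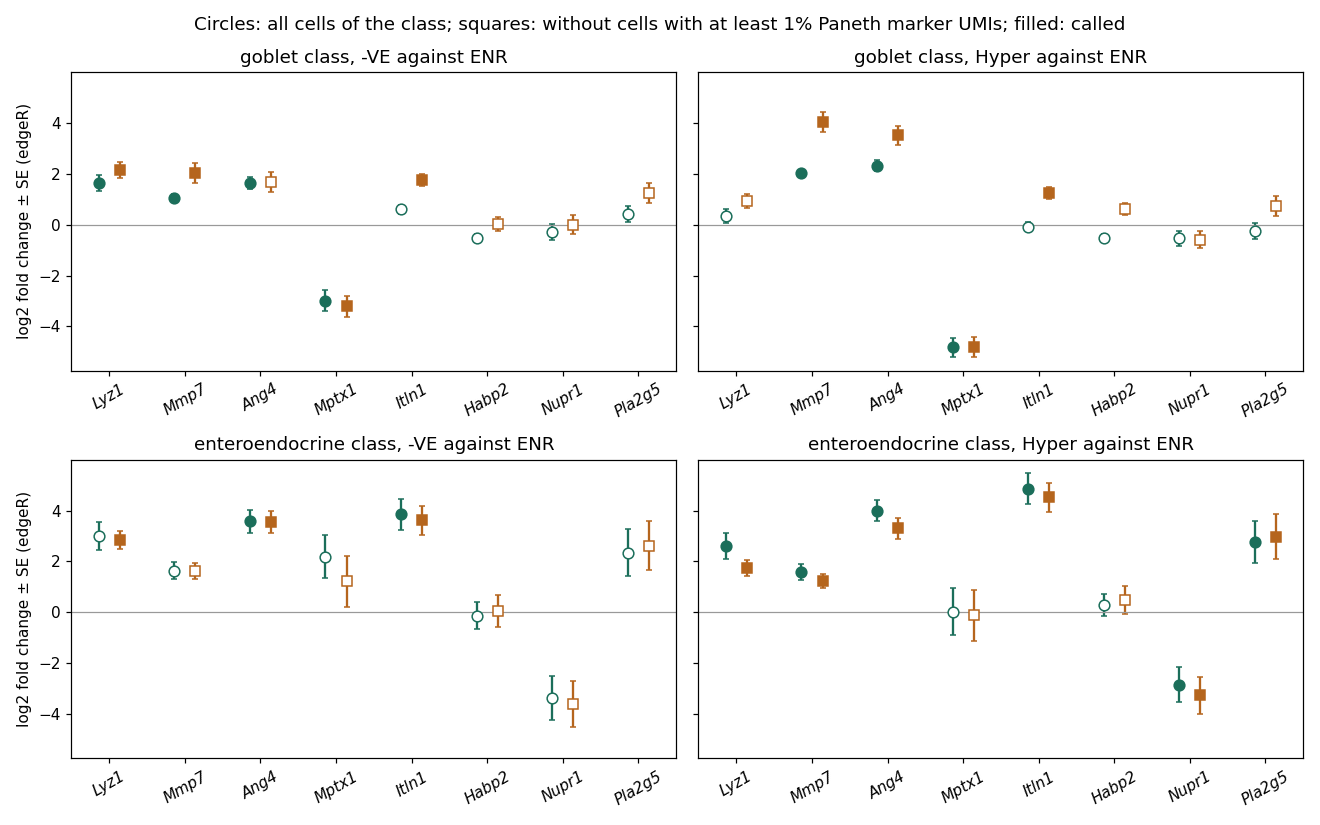
Log2 fold changes ± SE of 8 members within the goblet and enteroendocrine classes for -VE and Hyper against ENR, from fits to all cells of a class (circles) and without the cells that give at least 1% of their UMIs to Paneth markers (squares). Goblet Mmp7 in Hyper-organoids lies at 2.02 with all cells and at 4.03 without those cells, and goblet Mptx1 at -4.82 and -4.81.

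In the stem class, which carries Lgr5, Mmp7 stood at 0.620, 0.405 and 0.786 CPM in ENR, 1.55 and 1.28 CPM in -VE and 9.74, 7.36 and 5.93 CPM in Hyper libraries, with no overlap (3.60 ± 0.30 for Hyper against ENR). Enterocytes of the Hyper libraries gave 1 Mmp7 UMI in 1 library and none in the other two, where the limit set by 3 UMIs was 7.05 and 1.23 CPM. TA cells rose likewise in Mmp7, by 2.71 ± 0.45. Pla2g5 in the stem class was at 20.8, 21.6 and 27.5 CPM in ENR, 27.4 and 36.6 CPM in -VE and 70.9, 41.8 and 38.3 CPM in Hyper libraries (1.01 ± 0.23, edgeR adjusted p = 0.00590), and fell under 2-fold without Hyper library 1 (0.73). In TA cells Pla2g5 rose by 1.88 ± 0.25, from 12.2, 11.8 and 14.8 CPM to 72.5, 38.4 and 42.5 CPM. Of the Pla2g5 UMIs of a Hyper library, 56.3% to 60.0% lay in TA and 37.1% to 41.2% in stem cells. With cells thinned to 10000 UMIs, 19.3% to 22.8% of ENR and 29.7% to 47.2% of Hyper stem cells had a Pla2g5 UMI, beside 0.743% to 1.08% of ENR enterocytes (49.2% to 54.2%, 62.9% to 87.4% and 2.06% to 3.74% unthinned), at median depths of 31294 to 40397.5 UMIs in ENR stem cells and 32330.5 to 39846.5 in ENR enterocytes. Called members numbered 4 of 8 tested in the stem class (18.0% of all tested genes) and 5 in the TA class (20.9%). Both counts include Mptx1, whose calls in these classes are not read as a result.

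The other calls in stem and TA cells were on genes whose UMIs lay mostly in other classes in ENR-organoids. Lyz1 was lower by 2.23 in stem and by 2.10 in TA cells of Hyper- against ENR-organoids on the log2 scale. Its ENR level was 68.8 to 80.2 CPM in stem cells and 25.3 to 55.0 CPM in enterocytes, which should lack it. Within enterocytes Lyz1 was called lower too in Hyper- against ENR-organoids. Hyper enterocytes held 23.5 CPM over 7 cells in library 1, 4.10 CPM over 58 cells in library 2 and 7 UMIs over 21 cells in library 3. The part of RNA from other cells was not tested. Mptx1 in stem cells was at 2.56, 2.51 and 3.67 CPM in ENR libraries, beside 0.923, 1.57 and 6.78 CPM in ENR enterocytes. Stem cells of the Hyper libraries held 1, 4 and 2 Mptx1 UMIs (0.0201, 0.0770 and 0.0551 CPM), where 3 UMIs would be 0.0603, 0.0578 and 0.0827 CPM. TA cells of the Hyper libraries held 5, 5 and 3 UMIs. Mptx1 passed the filter on low counts through the libraries where it was high, so its calls in both classes are not read as a result. Habp2 in TA cells was at 0.452, 0.679 and 0.121 CPM in ENR and 3.23, 1.87 and 0.871 CPM in Hyper libraries (2.09 ± 0.72, edgeR adjusted p = 0.0353), a call lost without any 1 of 4 libraries.

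Within the Paneth class only -VE and ENR libraries had at least 20 cells each. Of 9 tested members 2 were called, 1 of them the known rise of Ang4, and 1.07% of all tested genes were called. Ang4 was at 1388 and 4238 CPM in -VE libraries against 1236, 918 and 709 CPM in ENR libraries (log2 fold change 1.33 ± 0.29), and Mptx1 at 886 and 362 CPM against 5338, 2617 and 1605 CPM (-2.49 ± 0.45, edgeR adjusted p = 0.00835). The ranges did not overlap for either gene. The 10, 2 and 2 Paneth class cells of the Hyper libraries gave Ang4 levels of 6061, 4097 and 10391 CPM and Mptx1 levels of 102, 99.3 and 0 CPM, the 0 over 2 cells, too few for a test. In the 2 cells of Hyper library 3 Mptx2 was at 2258 CPM, with all 103 UMIs in 1 cell.

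The defensins, the other large group of Paneth products, did not follow Mmp7 and Ang4. Of 27 alpha-defensin genes 22 were tested, and all 22 were lower in Hyper- than in ENR-organoids, beside 4.75% of all tested genes, with a median log2 fold change of -3.13 against -0.01 over all genes. Against -VE-organoids 20 were lower (median -2.98), beside 2.51% of all tested genes, and between -VE and ENR their median was 0.10 beside 0.00 over all genes. Among the 10 members, Mptx1 was called lower in both contrasts of Hyper-organoids, Lyz1 and Itln1 in the contrast with -VE, and Mptx1 was at -2.16 in -VE- against ENR-organoids.

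Related gene groups were counted in the same fits. Of 13 tested regulators of Paneth and secretory fate, 2 were called in Hyper against ENR: Fzd5, a Wnt receptor needed for Paneth cell maturation, fell by 1.77 on the log2 scale (edgeR adjusted p = 1.51e-06), and Nod2, a sensor of bacterial cell wall fragments, rose by 2.25 ± 0.30. Counts for Hyper against ENR stand beside the 18.2% called higher and 4.75% called lower of all tested genes, and 2 of 13 is no more than that background. Of 5 niche ligands, Wnt3, the Wnt ligand that Paneth cells supply to stem cells, was the 1 called, at 1.74 ± 0.22 for Hyper and 1.16 ± 0.24 for -VE against ENR (edgeR adjusted p = 0.0269 for the latter, where 1.35% of all tested genes were called higher). Among 7 other secreted antibacterial proteins that were tested, Reg3b rose by 3.33 and Reg3g by 4.94 in Hyper- against ENR-organoids, and Lypd8 fell by 1.29. The authors had screened for the Hyper medium with Reg3b as one of their markers, so its rise was selected for. Of 12 listed relatives of the members 3 were tested and all 3 called: Crp (1.61) and Ang (1.22) were higher and the phospholipase Pla2g10 (-3.11) lower in Hyper-organoids. Medians of these 4 lists were 0.07, 0.62, 0.61 and 1.22, beside -0.01 over all genes.

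The last comparison, DSS against normal colonic crypts, had 1 library per group, so there is no test and the intervals are exact Poisson 95% intervals that cover counting error only. Of the 10 genes, 7 differed by at least 2-fold on the scale of log2(CPM + 1), which shrinks changes of low genes, beside 2.32% of 19048 genes at least 2-fold higher and 0.997% at least 2-fold lower in DSS. The lower ones included the known differences of Ang4, from 815 CPM (803 to 828) to 3.64 CPM (3.01 to 4.36), and of Mptx1, from 7283 CPM (7245 to 7320) to 90.9 CPM (87.6 to 94.2). Itln1 was lower as well, at 25.4 CPM (23.3 to 27.7) in the normal and 1.30 CPM (0.934 to 1.75) in the DSS library, 19.6-fold. Mmp7 went the other way, from 1.41 CPM (0.935 to 2.03) to 10.4 CPM (9.32 to 11.6), 7.40-fold higher. Nupr1 was 2.08-fold higher, at 160 CPM (155 to 166) against 333 CPM (327 to 340). Pla2g5 was at 5.17 CPM (4.22 to 6.28) and 10.7 CPM (9.61 to 11.9). Lyz1 had 2 UMIs in the normal library and 61 in the DSS library. Mptx2 and Habp2 had 0 UMIs in both, where 3 UMIs would be 0.151 CPM in the normal and 0.0926 CPM in the DSS library and the exact Poisson upper limits are 0.185 and 0.114 CPM. No UMI of the 27 alpha-defensin genes was found in either.

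Ang4 and Mptx1 of the normal library lay in 2 clusters of secretory cells. The first, cluster 19, was led by Clca1, Ang4, Mptx1, Fcgbp and Retnlb and held 36 normal and 2 DSS cells, and the second, cluster 5, was led by Spink4, Muc2, Spdef, Ramp1 and Ccl6 and held 83 normal and 150 DSS cells. In the normal library cluster 19 had 74.2% of all Ang4 UMIs and cluster 5 most of the rest. Ang4 was among the genes the clusters were built from, and the near-absence of 1 cluster in the DSS library was not counted as a result. Within cluster 5, present in both libraries, Ang4 was at 2298 CPM in the normal and 20.9 CPM (16.3 to 26.3) in the DSS library. Mptx1 was there at 25957 and 764 CPM, and Itln1 at 92.2 and 7.53 CPM. Mmp7 in cluster 5 was at 15.4 and 84.6 CPM, and the cluster held 92.9% of its UMIs in the normal and 86.6% in the DSS library. Of the 61 Lyz1 UMIs of the DSS library, 60 lay in cluster 5, in 8 cells, with 26 in 1 cell. Nupr1 was at 802 and 1183 CPM in cluster 5.

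Lyz2, the lysozyme of myeloid cells, had 2 UMIs in the normal library and 2986 UMIs or 92.2 CPM (88.9 to 95.5) in the DSS library, nearly all in 3 clusters. Of its DSS UMIs, 59.9% came from cluster 21, 20 cells led by the macrophage genes Apoe, C1qb and C1qa, 24.4% from cluster 15, 66 cells led by the neutrophil genes Retnlg, S100a9 and S100a8, and 14.8% from cluster 22, 21 cells led by Camp, Ngp and Ltf. In cluster 5 Lyz2 was at 0.869 CPM. The summed neutrophil markers went from 0.0502 to 2554 CPM and the macrophage markers from 5.43 to 73.0 CPM. Without clusters and cells that carried the leukocyte marker Ptprc, a step that left most cells of cluster 22 in place (4.76% of them had a Ptprc UMI), Lyz2 was at 7.05 CPM in the DSS library and had 0 UMIs in the normal library, and the log2 differences of Ang4 and Mptx1 were -7.45 and -6.28 against -7.46 and -6.31 with all cells.

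**Figure D4:**
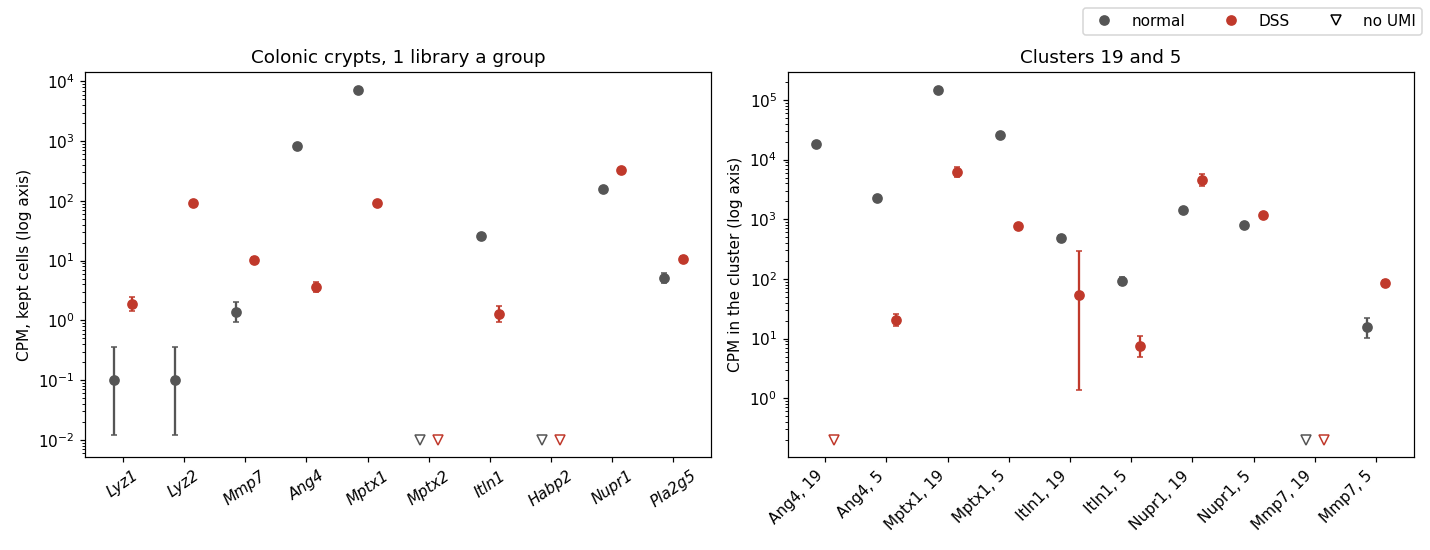
Levels of the members in normal and DSS colonic crypts (left) and of Ang4, Mptx1, Itln1, Nupr1 and Mmp7 in clusters 19 and 5 of both libraries (right), in CPM on a log axis with exact Poisson 95% intervals and triangles for genes with no UMI. Cluster 19 had 2 DSS cells. In cluster 5 Ang4 is at 2298 CPM in the normal and 20.9 CPM in the DSS library, and Mmp7 at 15.4 and 84.6 CPM.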

How the data were processed

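Single-cell 3′ RNA libraries of 8 organoid cultures and 2 colonic crypt preparations were analysed as UMI counts per gene and cell barcode. The authors deposited these counts from Cell Ranger 3.0.0 on mm10 and processed them in Seurat 3.1.4, per the submitters' processing notes, while the file headers name another Cell Ranger release. The kept cells and cell classes are those of the authors' tables, whose stated filter was at least 1500 genes and at most 25% mitochondrial UMIs. Not all kept colon cells met it: cells with at least 1500 genes held 2202 of the 2986 Lyz2 UMIs of the DSS library. Doublets were not removed here, and an alternative left out the 5% deepest cells of each library. Entries of the 10 genes in the table of kept cells were checked against the matrices and did not differ.

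UMIs were summed per library, or per class and library with at least 20 cells, and fitted over all 8 organoid libraries with edgeR 4.0.16 (quasi-likelihood test, TMM, filterByExpr, R 4.3.3), with Benjamini-Hochberg adjustment over all tested genes. For shares of cells with a UMI each organoid cell was thinned to 10000 UMIs, which left out 63 to 280 shallower cells per library. Plain CPM is printed for levels and the fit gives fold changes. The colon pair was compared by CPM, with a pseudocount of 1 CPM on the log2 scale. Other computations used Python 3.11.15, numpy 2.4.6, pandas 2.3.3 and scipy 1.17.1. Steps across many genes were tested on simulated data. Replicates are separate cultures or passages as far as the labels say, so p-values measure the spread between these libraries, which may be technical.

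Libraries whose sample codes start alike, read here as culture series, were checked for pairing: for ENR and Hyper the correlations of deviations from the group means were 0.192, 0.170 and 0.436 over 16037 genes, and the highest between different series was 0.129. For -VE the same-series values were 0.161 and 0.0617 with ENR and 0.139 and 0.115 with Hyper. As all 3 ENR and Hyper pairs exceeded 0.1, a fit with the series as a block was run as an alternative. ENR library 2 and Hyper library 1, of different series, exceeded 0.1 too, so this limit does not separate pairs from other libraries. The printed fold changes and p-values come from the fit without the block. Other alternatives were DESeq2 1.42.0, other filters, thinned cells and leaving out each library. At most 5 cell barcodes were shared by any of the 45 pairs of libraries. The organoid libraries held 89124015 to 170019527 UMIs in kept cells, and intervals cover counting error only.

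The 10 genes and the gene lists were chosen with earlier results of these data known. Named were all 10 members in every contrast, the 3 genes most correlated with each, and up to 6 called genes per list with the smallest adjusted p.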

Additional observations from a re-analysis of the deposited data

Results flagged for a closer look

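In each of the 3 cases below a gene moved one way in every library of one cell class. In another class it moved the opposite way in every library under the same contrast. They are not all such cases, as Habp2 in Hyper- against ENR-organoids was lower in goblet cells and higher in TA cells. These differences were not tested. Values are log2 ratios of mean levels. Lyz1 in Hyper- against ENR-organoids was 2.51 higher in enteroendocrine cells and at -2.05 in stem cells, a difference of 4.56 between the classes. Enterocytes, which should lack Lyz1, were also lower in this contrast. Lyz1 in -VE- against ENR-organoids was at 2.88 in enteroendocrine and at -0.34 in stem cells, a difference of 3.22. Nupr1 in -VE- against ENR-organoids was at 1.00 in enterocytes and at -3.32 in enteroendocrine cells, a difference of 4.32. In the enteroendocrine class 1 cell gave 92.2% and 85.6% of the Nupr1 UMIs of ENR libraries 2 and 3. For Lyz1, 1 cell gave 42.2% of the enteroendocrine UMIs of Hyper library 2. The level of that library was 654 CPM, beside 316 to 524 CPM in ENR libraries.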

How the results depend on the processing

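The 30 pairs of a member and a contrast gave 618 values under the alternatives, of which 527 kept their direction and side of the thresholds, 30 lost a call, 16 gained one and 45 had the opposite sign, mostly in members that were not called, and the causes were not tested. These alternatives cover fits within stem, goblet and Paneth cells. Within enteroendocrine cells, fitted as results of their own, Lyz1 (2.60), Itln1 (4.86) and Nupr1 (-2.84) also had the opposite sign to all cells in Hyper against ENR. The called members that turned were Ang4 within stem cells (-0.24) and Pla2g5 within goblet cells (-0.26) in Hyper against ENR, and Pla2g5 within the Paneth class (-1.44) in -VE against ENR.

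Members not called that turned in Hyper against ENR within goblet cells were Lyz1 (0.32), Lyz2 (0.36), Mptx2 (0.50), Habp2 (-0.51) and Nupr1 (-0.54), and without the Paneth class Lyz1 (0.40), Mptx2 (0.45) and Itln1 (0.48). Itln1 was at 1.39 without the Paneth and goblet classes and Habp2 at -0.18 with thinned cells. In Hyper against -VE Ang4 turned without the Paneth class (0.18), without the Paneth and goblet classes (0.53) and within goblet cells (0.67), and Mptx2 without the Paneth class (1.72) and within goblet cells (2.73, called). Pla2g5 was at -0.68 within goblet cells and Nupr1 at 0.39 within stem cells. In -VE against ENR Lyz1 was at -0.35 within stem cells and Lyz2 at -1.01 without the Paneth and goblet classes. Mptx2 was at -1.27 without the Paneth class, -2.23 within goblet cells and -0.32 with thinned cells. Nupr1 was at -0.28 within goblet cells and -0.51 within the Paneth class. Habp2, at 0.01 with all cells, was at -0.15 with the replicate block, -0.33 without the Paneth and goblet classes, -1.91 within stem, -0.53 within goblet and -0.49 within Paneth cells, and -0.33 with thinned cells. With 1 library left out, values crossed 0 for Nupr1 in Hyper against ENR (-0.39 to 0.59), Mmp7 (-0.061 to 0.20), Ang4 (-0.97 to 0.34) and Nupr1 (-0.84 to 0.33) in Hyper against -VE, and Mptx2 (-0.35 to 0.65), Habp2 (-0.080 to 0.12) and Nupr1 (-0.051 to 0.82) in -VE against ENR.

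Counts of called members under the alternatives are given without the share of all genes called, so they are not read as results about the members. The number of called members in Hyper against ENR was 4, 4 to 6 with 1 library left out, and 7 without the Paneth and goblet classes. In Hyper against -VE it was 3, 2 to 4 with 1 library left out, and 5 within stem cells. In -VE against ENR it was 5, 1 to 6 with 1 library left out, 0 within stem cells (edgeR, with 3 members at an unadjusted p under 0.05) and 2 within the Paneth class. Within goblet cells, leaving out 1 library gave 1 to 5 for -VE against ENR (4 with all), 3 to 5 for Hyper against ENR (3) and 2 to 5 for Hyper against -VE (3), and 5 for Hyper against ENR without cells with at least 1% Paneth marker UMIs, an alternative chosen after seeing the data. Within enteroendocrine cells -VE against ENR gave 1 to 4 (2 with all). With the culture series as replicate block the numbers of called members were again 4, 3 and 5, and the block changed no other call of a member. All-gene calls moved most with the filter on low levels: at 10 CPM or more 800, 528 and 166 genes were called for Hyper against ENR, Hyper against -VE and -VE against ENR, against 3675, 2985 and 409. DESeq2 called 3523, 2845 and 562 genes. With fewer than 20 Paneth class cells in Hyper libraries, no contrast of Hyper-organoids could be run within that class.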

Other observations

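Barcodes left out of the authors' table of kept cells carried less of most members than the kept cells did. Nupr1 was the exception in the organoids: its level in the left-out barcodes was 1.41, 1.60 and 1.90 times the kept level in ENR, 1.97 and 2.31 times in -VE, and 3.96, 1.75 and 1.72 times in Hyper libraries. In the colon Nupr1 was at 22.9 CPM in the left-out barcodes of the normal and 148 CPM in those of the DSS library, below the kept level in both.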
